A study of Caenorhabditis elegans with 12 samples.

Results

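Animals kept with aged silver nanoparticles had more transcript of several collagens and other secreted proteins of the body surface than animals kept with pristine silver nanoparticles. Of 22548 probe sets tested, 22 were higher and 3 lower with aged particles, and 9 of the 22 belonged to col-class collagens. The hedgehog-related genes grl-23 and grl-19, the cuticlin gene cut-1 and the molting gene bli-5 were among the others. Among called genes with a pristine signal above the floor on all arrays, the largest difference was that of the collagen gene col-158, at 22.1-fold.

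The comparison was between 3 arrays of animals exposed to aged particles and 3 arrays of animals exposed to pristine particles, chosen by the sample titles, out of 12 arrays in the series. All animals were wild-type N2 (Bristol) Caenorhabditis elegans. They were placed in the exposure solution as first-stage larvae 12 h old and stayed in it for 48 h. The aged particles were aged artificially, and the study's title names sulfidized silver nanoparticles. The other 6 arrays came from unexposed control animals and from animals in silver nitrate, with 3 arrays each. Each silver treatment was given at its own concentration with a 30% effect on reproduction, so aged and pristine particles had that effect in common and could differ in silver dose. The concentrations were not used here. RNA came from populations of 2000 to 3000 whole animals at a single time point, and 100 ng of total RNA was labelled and hybridised to Affymetrix arrays for C. elegans. Nothing in the labels tells whether the samples within a group came from separate cultures, so the p-values below measure only the spread between these samples, which may be technical.

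The nematode cuticle is an extracellular coat of cross-linked collagens and insoluble cuticlins that the epidermis secretes anew at each larval molt. Collagen chains are hydroxylated, cleaved and cross-linked by dedicated enzymes, and the expression of many of these genes rises and falls with each molt. The hedgehog-related genes of nematodes encode secreted proteins made in epidermal and other lining cells, several of which act in the molt. When silver nanoparticles age in sulfide-rich surroundings, silver sulfide forms at their surface, and this lowers the release of silver ions.

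Levels are given as the log2 of the median-scaled signal, with a floor of 4 below which signals were not told apart, and a difference is the aged mean minus the pristine mean on that scale. A probe set was called at a Benjamini-Hochberg adjusted p under 0.05 in limma, fitted to all 12 arrays with a mean for each group. On that rule 0.111% of probe sets were called, 0.0976% as higher and 0.0133% as lower with aged particles. At an unadjusted p under 0.05 there were 1131 higher (5.02%) and 1186 lower (5.26%), or 2317 in all where 1127 would be met by chance. The 3 aged and 3 pristine arrays did not overlap in any of the 25 called probe sets. Among all probe sets the aged arrays lay wholly above the pristine ones in 6.85% and wholly below in 8.77%. The calls lay close to the threshold: 16 of the 25 shared the adjusted p of 0.0496 from limma, and 10 more probe sets lay between 0.05 and 0.06. Of the 22 called higher, 17 were above the floor on all 6 arrays.

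How many probe sets were called depended on which arrays were fitted. With only the 6 aged and pristine arrays limma called 8 probe sets, and 3 of the 25 were among them, those of col-164, col-114 and sst-20. In 7 of the 25, all control or all silver nitrate arrays lay at the floor, where an array shows no spread. Without 1 array the count ran from 5 to 23. It was 23 without aged replicate 1 or control replicate 2. Leaving out aged replicate 2 or 3 gave 7 or 6 calls, and leaving out pristine replicate 1, 2 or 3 gave 12, 7 or 5. It was 9 or 5 with control replicate 1 or 3 left out, and 8, 12 or 11 with silver nitrate replicate 1, 2 or 3 left out. In every one of these 12 fits, 3 of the 25 were called, those of col-164, col-114 and col-158.

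**Figure D1:**
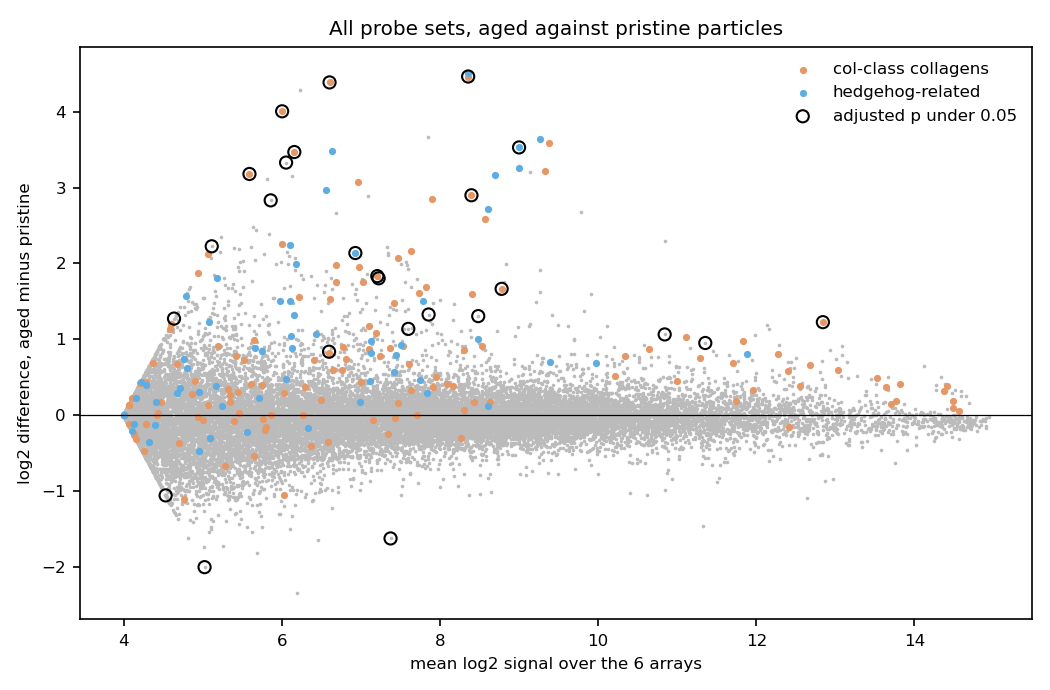
Difference between aged and pristine particles (log2, vertical axis) against the mean log2 signal over the 6 arrays (horizontal axis) for all 22548 probe sets. Col-class collagens are orange, hedgehog-related genes blue, and open circles mark the 25 called probe sets, of which 22 lie above 0 and 3 below.

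The col-class collagens are the structural collagens that make up most of the cuticle. Of the 128 measured, 98 had a higher mean with aged particles, 24 a lower mean, and 6 lay at the floor on all 6 arrays. Their median difference was 0.44, beside -0.02 over all 17118 genes, and 9 of the 128 were called, all higher, where 0.129% of all genes were called higher and 0.0117% lower. Counted at an unadjusted p under 0.05, 58 were higher and 2 lower, beside 5.37% and 5.24% of all genes. The aged arrays lay wholly above the pristine arrays for 58 collagens, or 45.3% of them, beside 7.37% of all genes, and wholly below for 3, beside 8.94%. Whether there were more collagen transcripts per epidermal cell or more epidermal tissue per animal cannot be told apart in RNA from whole animals. Of the 128 probe sets, 50 are of a kind that can also bind near-identical transcripts, so the identity of a single collagen is uncertain for those.

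The collagen gene col-164 stood at 6.89, 7.34 and 7.31 on the aged arrays and at the floor on all 3 pristine arrays. It was also at the floor on all silver nitrate arrays and on 2 of 3 control arrays, the other being at 4.57. All aged arrays were thus well above the rest, and the difference was at least 9.06-fold (3.18 ± 0.16 SE, adjusted p = 0.000263, limma). It was called in all 20 alternative fits that tested it, and with only the 6 arrays its adjusted p was 0.0154.

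For col-114 the aged arrays read 8.36, 8.96 and 9.07 and the pristine arrays 4.56, 4.32 and 4.35, while control arrays lay between them at 6.59, 7.69 and 6.78. The difference was 20.9-fold (4.39 ± 0.30 SE, adjusted p = 0.00173, limma), and it was called in all 22 alternatives. Its probe set can also bind near-identical transcripts.

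The gene col-158 reached 10.27, 10.66 and 10.84 on the aged arrays against 6.86, 5.94 and 5.57 on the pristine arrays. The control arrays again lay between the groups, from 7.71 to 8.91, and the silver nitrate arrays were all at the floor. The difference was 22.1-fold (4.47 ± 0.37 SE, adjusted p = 0.00623, limma), with an adjusted p of 0.1 when only the 6 arrays were used.

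Collagens of brighter probe sets were also among the calls. For col-14 the aged arrays read 9.57, 9.92 and 9.35 and the pristine arrays 7.89, 8.02 and 7.93, a 3.17-fold difference (adjusted p = 0.0242, limma). The brightest called collagen was col-43, at 13.37, 13.59 and 13.41 with aged and 12.11, 12.52 and 12.06 with pristine particles, or 2.34-fold. These pairs of groups stood apart by more than the range within either one. The gene col-123 was 3.56-fold higher, from 7.87 to 8.31 on the aged and from 5.98 to 6.49 on the pristine arrays (adjusted p = 0.0413, limma).

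The remaining called collagens were col-45, col-35 and col-84. For col-45 the aged arrays read 7.2, 8.30 and 8.52 and every pristine array lay at the floor, a difference of at least 16.1-fold. For col-35 they read 6.95, 8.34 and 8.38 against 5.16 and 4.11 and the floor, or at least 11.1-fold. For col-84 they read 9.42, 10.07 and 10.05 against 7.53, 6.88 and 6.43, or 7.46-fold. In each of these the lowest aged array was replicate 1, which was the lowest of the aged arrays in 17 of the 22 genes called higher.

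**Figure D2:**
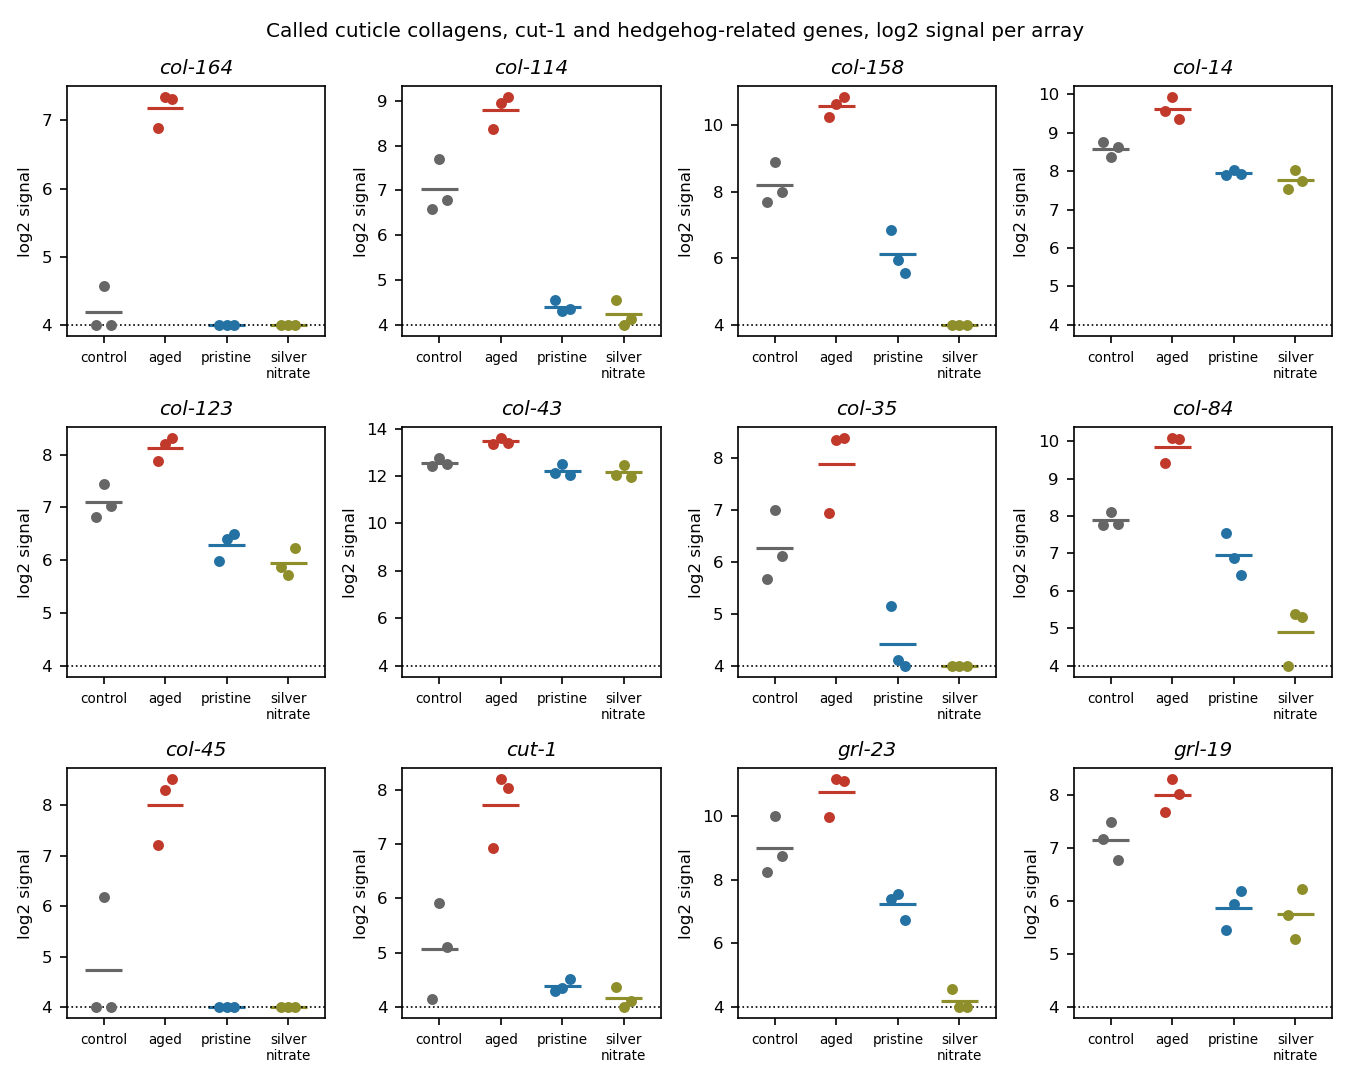
Log2 signal on each of the 12 arrays (dots) for the 9 called collagens, cut-1, grl-23 and grl-19, with the group mean as a bar and the floor of 4 as a dotted line. In each panel the 3 aged arrays lie above the 3 pristine arrays, and for 4 of the genes shown at least 1 other group lies at the floor on all 3 arrays.

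Collagens that missed the threshold included some of the largest differences. The gene col-36 was 3.59 higher on the log2 scale (adjusted p = 0.0553, limma) and col-2 3.23 higher (adjusted p = 0.122, limma), the second with aged arrays at 10.06, 11.39 and 11.35 and pristine arrays at 7.97, 7.56 and 7.60. Both had control arrays between the groups or overlapping the aged ones. A difference of more than 2-fold was seen for 32 collagens that were higher and 2 that were lower, col-163 and col-69. The gene col-163 was 1.11 lower with 2 of 3 aged arrays at the floor (adjusted p = 0.394, limma), and col-69 was 1.06 lower with an aged SD of 1.12. Both were named after their values were seen.

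The difference was seen in collagens of middle and high signal and was small in the dimmest, where values at the floor limit it. With the 128 collagens ranked by mean signal and divided in 3, the 42 dimmest had a median difference of 0.18. Of these 42, 5 were wholly higher on the aged arrays, beside 7.37% of all genes. The 43 in the middle had a median of 0.81, with 26 wholly higher. The 43 brightest had a median of 0.50, with 40 of them higher in mean and 27 wholly higher.

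Averaged over the 128 genes, the collagens stood at 7.68, 7.98 and 7.81 on the aged arrays and at 7.1, 7.09 and 7.04 on the pristine arrays. Control arrays stood at 7.17, 7.41 and 7.38 and silver nitrate arrays at 6.89, 7.0 and 6.78. Every aged array was above every other array, and every pristine array was below every control array. The median difference from control was 0.34 for aged and -0.19 for pristine particles, values that share the 3 control arrays. For 42 of the 128 all aged arrays were above all control arrays, and for 17 all pristine arrays were below them, where this held for 770 and 1058 of all 17118 genes.

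Furrow collagens form the rings around the cuticle, and mutants in them are short and stout. All 5 that were measured had higher means with aged particles, with a median difference of 1.60, or 0.93 without pristine replicate 3, and none was called. The differences were 1.84 for dpy-7, 1.77 for dpy-9, 1.60 for dpy-2, 1.13 for dpy-3 and 0.73 for dpy-8, with adjusted p from 0.388 to 0.768 in limma. Their SDs were large: the dpy-7 arrays read 6.85, 7.59 and 7.04 with aged and 6.08, 5.48 and 4.39 with pristine particles. Averaged over the 5, the aged arrays stood at 7.06, 7.95 and 7.08 and the pristine arrays at 6.33, 6.24 and 5.28. The silver nitrate arrays covered most of that range, at 6.21, 7.79 and 5.27.

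Of 13 other collagens named for body shape, 12 were higher in mean and 1 was lower, with a median difference of 0.65, and none was called. The aged arrays lay wholly above the pristine arrays in 10 of the 13, beside 7.37% of all genes. The largest difference was that of rol-8, a collagen whose mutants roll, at 10.55, 11.51 and 11.30 against 8.45, 8.61 and 8.28 (2.68 ± 0.41 SE, adjusted p = 0.064, limma). A further rol-8 probe set differed by 3.67 with an adjusted p of 0.0726 in limma. The differences were 0.85 for sqt-3, 0.65 for dpy-13 and 0.63 for dpy-4. The probe sets of these genes, like the first of rol-8, can also bind near-identical transcripts. The exception was bli-1, a collagen of the adult cuticle whose mutants blister, at -0.69 (adjusted p = 0.481, limma).

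The list of cuticlins, the insoluble part of the cuticle, also holds the cuticlin-like cutl genes and did not follow the collagens as a whole. Of 34 measured, 18 were higher and 14 lower in mean, with a median difference of 0.04. At an unadjusted p under 0.05 in limma, 4 were higher, beside 5.37% of all genes. The called gene was cut-1, which encodes a cuticlin of the dauer larva's cuticle. Its aged arrays read 6.92, 8.19 and 8.04 and its pristine arrays 4.29, 4.35 and 4.52, with control arrays from 4.15 to 5.92. The groups did not overlap, and the difference was 10.1-fold (3.33 ± 0.45 SE, adjusted p = 0.0496, limma). The next was cut-5 at 1.08 (adjusted p = 0.122, limma). The others of the 4 were cut-6, at 1.46 with pristine replicate 1 at 4.47 and the other pristine arrays at the floor, and cut-2, at 0.91. In the other direction cut-3 and cut-4 differed by -0.19 and -0.28.

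The hedgehog-related genes encode secreted proteins with warthog, groundhog or ground-like domains. Of 54 measured, 46 were higher in mean with aged particles and 6 lower, with a median difference of 0.72. In limma 23 were higher and 0 lower at an unadjusted p under 0.05, beside 5.37% and 5.24% of all genes. The aged arrays lay wholly above the pristine arrays in 26, or 48.1%, beside 7.37% of all genes. The ground-like genes grl-23 and grl-19 were called.

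On the aged arrays grl-23 read 9.99, 11.17 and 11.13, on the pristine arrays 7.39, 7.56 and 6.75. Control arrays lay from 8.24 to 10.03, overlapping the lowest aged array, and silver nitrate arrays were at or near the floor. The difference between aged and pristine was 11.6-fold (3.53 ± 0.49 SE, adjusted p = 0.0496, limma). For grl-19 the aged arrays read 7.68, 8.29 and 8.02 and the pristine arrays 5.45, 5.94 and 6.19, a 4.4-fold difference with the same adjusted p in limma.

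More ground-like genes lay just past the threshold. The difference was 3.64 for grl-20, with aged arrays from 10.47 to 11.50 and pristine arrays from 6.36 to 8.06, and 3.48 for grl-17, each with an adjusted p of 0.0553 in limma. For grl-25 the aged arrays read 9.63, 11.13 and 11.11 and the pristine arrays 7.60, 7.37 and 7.14 (3.25, adjusted p = 0.0927, limma). The gene grl-21 differed by 2.72 and the warthog gene wrt-10 by 2.96, with adjusted p of 0.122 and 0.155 in limma. These last 3 were chosen after their values were seen.

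The 54 hedgehog-related genes averaged 6.64, 7.1 and 6.87 on the aged arrays and 5.83, 5.98 and 5.97 on the pristine arrays. Control arrays stood close together between them, at 6.30, 6.27 and 6.30, and silver nitrate arrays at 5.86, 6.03 and 5.73. Aged arrays were thus above and pristine arrays below every control array, with median differences from control of 0.59 and -0.15. The patched-related genes encode membrane proteins related to the hedgehog receptor. Of 28 measured, 16 were higher and 12 lower in mean, with a median difference of 0.07 and none called. At an unadjusted p under 0.05 in limma, 4 of them were higher and 2 lower, beside 5.37% and 5.24% of all genes.

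**Figure D3:**
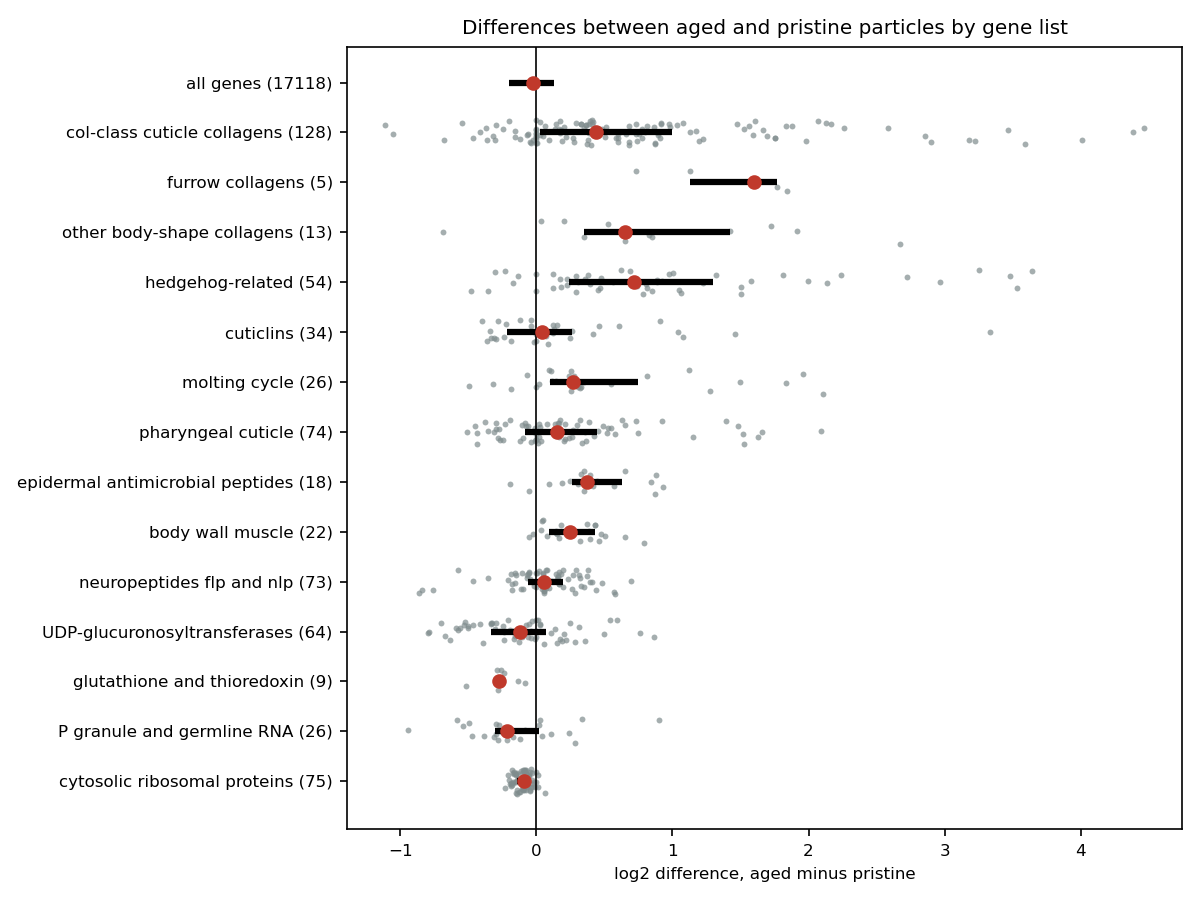
Difference between aged and pristine particles (log2) for each measured member (grey dots) of 14 gene lists, with the median as a red dot, the middle of the distribution (lower to upper quartile) as a black bar and the number of genes in brackets. The medians of the collagens (0.44), furrow collagens (1.60) and hedgehog-related genes (0.72) lie right of the median of all genes (-0.02).

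Genes needed for the molt, or that time it, were mostly higher with aged particles. Of 26 measured, 21 were higher in mean and 5 lower, with a median difference of 0.27. At an unadjusted p under 0.05 in limma, 6 were higher and 0 lower, beside 5.37% and 5.24% of all genes. The called gene was bli-5, which encodes a protease inhibitor-like protein needed for the molt and for an intact adult cuticle. It read 5.35, 5.63 and 4.84 on the aged arrays and was at the floor on all other 9 arrays, a difference of at least 2.42-fold (adjusted p = 0.0496, limma).

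Other molting genes had larger differences and more spread. For mlt-11, another protease inhibitor-like gene of the molt, the aged arrays read 8.05, 8.97 and 8.18 and the pristine arrays 6.40, 6.29 and 6.18 (2.11, adjusted p = 0.122, limma), and silver nitrate replicate 2 stood at 8.56. The difference was 1.96 for lin-42, the relative of the circadian period genes whose transcript cycles with the molts (adjusted p = 0.173, limma). It was 1.5 for noah-1, a component of the matrix outside the epidermis (adjusted p = 0.275, limma). Averaged over the 26, the aged arrays stood from 7.87 to 8.22 and the pristine arrays from 7.39 to 7.67, while silver nitrate replicate 2 reached 8.05. The part of molt timing in the cuticle differences was not tested.

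Enzymes that modify collagen differed less. Of 15 measured, 9 were higher and 6 lower in mean, with a median of 0.20, or 0.04 without aged replicate 2, and bli-5, which this list also holds, was the called member. The prolyl hydroxylase subunits, which stabilise the collagen helix, differed by 1.38 for phy-2 and 0.71 for dpy-18, with adjusted p of 0.293 and 0.377 in limma. The value of phy-2 rested on aged replicate 2, at 9.10, where the other aged arrays read 7.19 and 7.32. Astacins, a family of secreted metalloproteases that includes collagen-cleaving members, had 15 members higher in mean, 15 lower and a median of 0.00 over 33, with none called. In limma 6 of the 33 were higher and 1 lower at an unadjusted p under 0.05, beside 5.37% and 5.24% of all genes. The aged arrays lay wholly above the pristine arrays in 7 and wholly below in 2, beside 7.37% and 8.94% of all genes.

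The lining of the pharynx is built from other proteins than the body cuticle, among them glutamine- and asparagine-rich abu and pqn proteins. Of 74 measured, 46 were higher and 25 lower in mean, with a median difference of 0.15 and none called. In limma 14 of them were higher and 6 lower at an unadjusted p under 0.05, beside 5.37% and 5.24% of all genes. The abu genes led: abu-6 read 8.22, 8.56 and 8.05 with aged and 6.81, 7.08 and 6.38 with pristine particles (1.52, adjusted p = 0.084, limma). The differences of abu-10, abu-15 and abu-8 were 1.66, 1.52 and 1.48, with adjusted p from 0.109 to 0.137 in limma. The probe sets of abu-6, abu-8 and abu-15 can also bind near-identical transcripts.

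Genes of surface glycosylation, named for altered attachment of bacteria to the cuticle, had 10 of 14 members higher and 4 lower in mean, with a median of 0.34 and none called. The largest difference was that of bus-12, which encodes a nucleotide sugar transporter, at 6.78, 7.71 and 6.95 against 5.20 and 5.78 and the floor (adjusted p = 0.122, limma). For bus-24 it was 1.79 (adjusted p = 0.224, limma).

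The structures that join body wall muscle to the cuticle across the epidermis were higher in mean for 7 of 9 genes and lower for 1, with a median of 0.47 and none called. The differences were 1.12 for mup-4 and 0.71 for mua-3, which encode transmembrane proteins of these attachments, and 0.64 for ifb-1, an intermediate filament gene. Sarcomere genes of body wall muscle were higher in mean for 20 of 22 and lower for 2, with a smaller median of 0.25. Among them were mup-2, troponin T, at 0.79, dim-1 at 0.50, lev-11, tropomyosin, at 0.48 and unc-27, troponin I, at 0.46. None was called, and 7 of the 22 were higher at an unadjusted p under 0.05 in limma, beside 5.37% of all genes. The median difference of the sarcomere genes from control was 0.33 with aged and 0.06 with pristine particles.

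**Figure D4:**
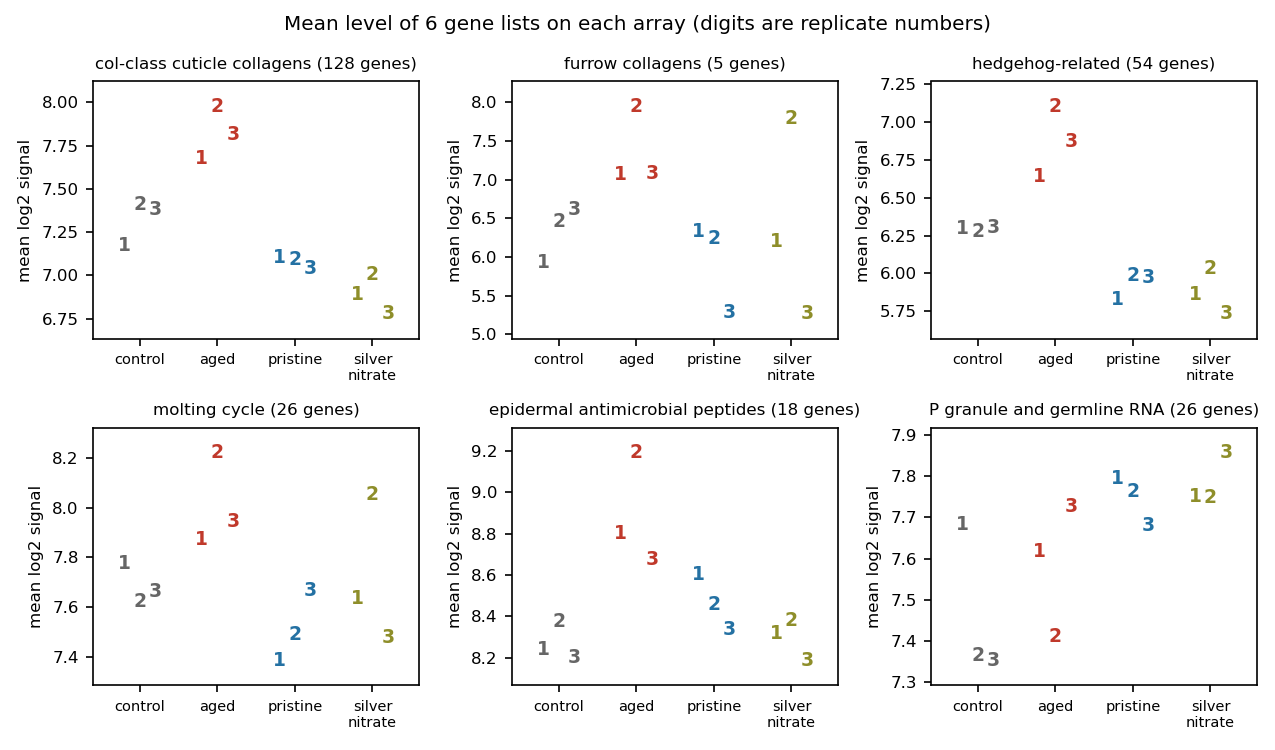
Mean log2 signal of 6 gene lists on each array, with the digit giving the replicate number and each panel on its own vertical scale. The aged arrays lie above all others for the col-class collagens (7.68 to 7.98) and hedgehog-related genes (6.64 to 7.1), while silver nitrate replicate 2 lies within the range of the aged arrays for the furrow collagens (7.79) and molting genes (8.05).

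Several called genes belong to families of defence against microbes. The gene ilys-3 encodes an invertebrate-type lysozyme, an enzyme that cuts bacterial cell walls. It stood at 7.98, 8.45 and 8.07 with aged and at 6.86, 7.01 and 7.22 with pristine particles, a 2.2-fold difference (1.14 ± 0.16 SE, adjusted p = 0.0496, limma). It was the called gene whose control mean lay above the aged mean, with control arrays from 8.32 to 8.42, and silver nitrate arrays lay from 6.36 to 6.86. Of 16 lysozyme genes 13 were higher and 2 lower in mean, with a median of 0.19, or 0.05 without aged replicate 2, and the next by p was lys-7 at 1.04 (adjusted p = 0.122, limma).

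For clec-60, a C-type lectin gene, the aged arrays read 9.22, 9.33 and 8.86 and the pristine arrays 8.05, 7.95 and 7.49. The groups did not overlap, and the difference was 2.47-fold (adjusted p = 0.0496, limma). Its relative clec-61 differed by 1.05 (adjusted p = 0.122, limma). The family did not move as a whole, with 88 of 220 members higher, 109 lower and a median of 0.00.

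The gene fipr-21 belongs to a family named for its induction by fungal infection. Its aged arrays read 11.83, 11.97 and 11.68 and its pristine arrays 10.96, 11 and 10.68, a 1.93-fold difference (adjusted p = 0.0413, limma). The control arrays lay between the groups, from 11.25 to 11.42. Its probe set can also bind near-identical transcripts.

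Of 18 epidermal antimicrobial peptide genes, 16 were higher in mean and 2 lower, with a median of 0.37 and none called. At an unadjusted p under 0.05 in limma, 7 were higher, beside 5.37% of all genes. The caenacin gene cnc-1 read 8.69, 8.59 and 8.32 with aged and 7.77, 7.71 and 7.60 with pristine particles (0.84, adjusted p = 0.0999, limma). The differences of nlp-30 and nlp-26 were 0.93 and 0.88, with adjusted p of 0.236 and 0.16 in limma. Averaged over the list, the aged arrays stood at 8.80, 9.19 and 8.67, and each lay above all pristine arrays, at 8.60, 8.46 and 8.33. The genes nlp-27 to nlp-30 are neighbours in the RefSeq annotation and have probe sets that can bind near-identical transcripts, so they are not 4 separate measurements.

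Further genes called higher carry no name that gives a role, and 7 of the 22, fipr-21 included, were in none of the lists. The aged arrays of C28H8.5 read 7.0, 7.71 and 7.12 and the pristine arrays 4.32, 4.74 and 4.26, or 7.12-fold. Those of R07E5.4 read 7.79, 8.46 and 8.13 against 6.05, 6.46 and 6.46, or 3.49-fold. Both genes showed groups that stood well apart, with control means between them. The gene K01D12.10 was at least 4.68-fold higher, with all pristine arrays at the floor. The differences of C02F4.4, C18H7.1 and D1044.1 were 2.51-fold, 2.09-fold and 1.78-fold, the last being the smallest among the genes called higher.

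The genes called lower with aged particles were sst-20 and M01E5.1, and the remaining called probe set matches several genes and is not named. For sst-20 the aged arrays read 4.06 or less and the pristine arrays 6.0, 5.92 and 6.16. The control arrays were at or near the floor like the aged ones, so the pristine arrays stood apart from both, with silver nitrate arrays at 5.13 and 4.96 and at the floor. The difference was at least 4.02-fold (adjusted p = 0.0467, limma), with an adjusted p of 0.0152 when only the 6 arrays were used. For M01E5.1 all aged and control arrays were at the floor and the pristine arrays read 5.36, 4.97 and 4.85, or at least 2.08-fold (adjusted p = 0.0496, limma).

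**Figure D5:**
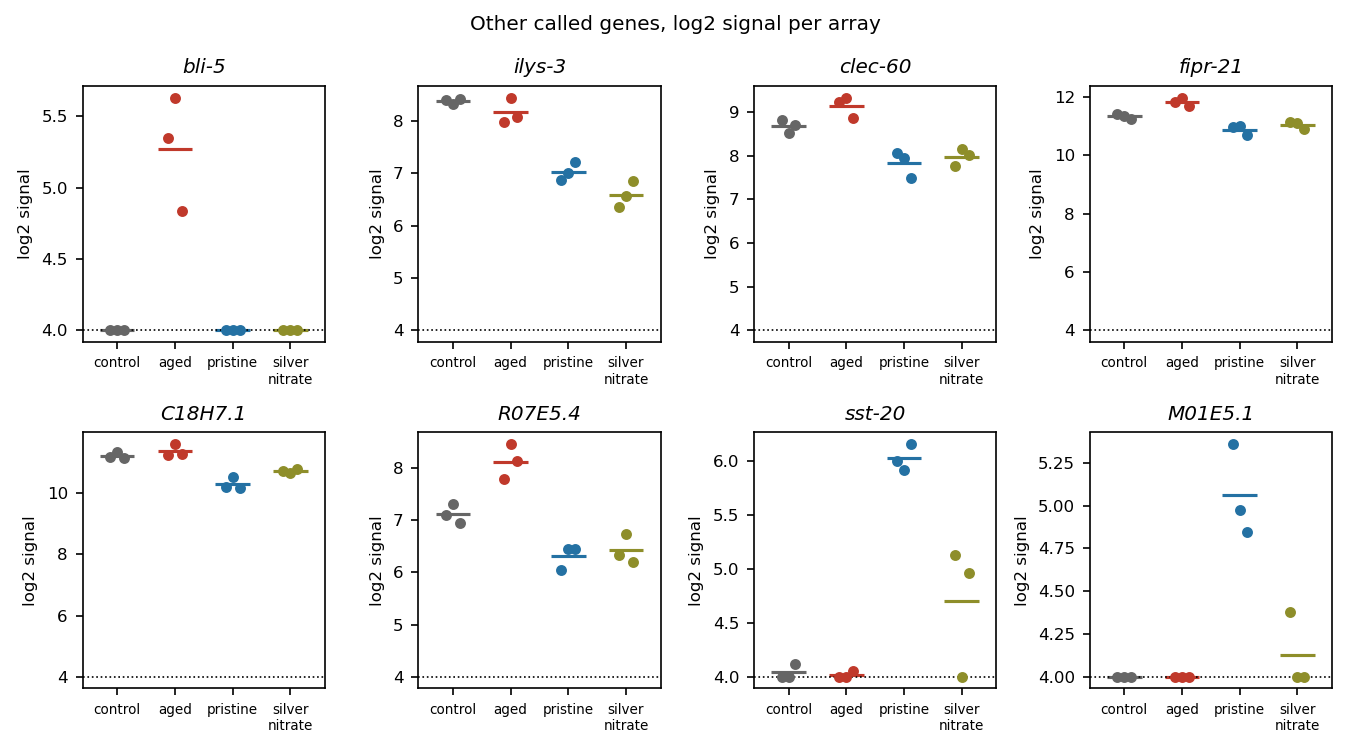
Log2 signal on each of the 12 arrays (dots) for 8 of the other called genes, with the group mean as a bar and the floor of 4 as a dotted line. The aged arrays lie above the pristine arrays in 6 panels and below them for sst-20 and M01E5.1, whose aged arrays read 4.06 or less.

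The genes with the lowest differences held fewer cuticle genes than those with the highest. Among all genes, 280 were more than 2-fold higher and 111 more than 2-fold lower with aged particles. The 50 genes with the highest differences ran from 2.02 to 4.47 and held 14 col-class collagens and 8 hedgehog-related genes. The 50 with the lowest ran in size from 1.13 to 2.01 and held 0 of either. An array of the lower group was at the floor for 24 of the 50 highest and 34 of the 50 lowest, so those sizes are lower bounds and the ranking by size is not exact.

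Compared with the control arrays, the called genes lay on both sides. For 20 of the 22 genes called higher, the control mean lay between the aged and the pristine mean. All aged arrays were above all control arrays in 18 of the 22, and all pristine arrays were below all control arrays in 13. Among all 17118 genes this held for 770 and 1058. All aged arrays were above all silver nitrate arrays in 22 of 22, a count with no share of all genes to set beside it. These counts share arrays with the comparison that chose the genes for high aged arrays. They are given as a description and not as a result about these genes.

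Genes that answer to metals differed little between the particle forms. Metallothioneins bind metal ions, and their transcripts are a common readout of metal exposure in nematodes. The gene mtl-1 stood at 12.45, 12.50 and 12.43 with aged and at 12.40, 12.35 and 12.36 with pristine particles, a difference of 0.09 (adjusted p = 0.822, limma), with control arrays from 12.38 to 12.70. The difference of mtl-2 was -0.14 (adjusted p = 0.789, limma). Of the 8 metal-responsive genes none was called, and the largest difference was that of cdr-4, a cadmium-responsive gene, at 0.36 (adjusted p = 0.385, limma). Genes of zinc and copper handling had a median of -0.02 over 21 and those of iron and heme -0.10 over 18, with none called.

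Genes of sulfide oxidation and the response to low oxygen were higher in mean for 14 of 17 and lower for 3, with a median of 0.14 and none called. The differences were 0.68 for rhy-1, which encodes a regulator of the hypoxia-inducible factor, 0.41 for cbs-1, cystathionine beta-synthase, 0.41 for sqrd-1, sulfide quinone oxidoreductase, and 0.38 for ethe-1, a mitochondrial sulfur dioxygenase. Aged replicate 2 was the highest aged array for each of these genes, and the groups overlapped for sqrd-1 and ethe-1. With 1 array left out, the median of the list ran from 0.07 to 0.22. In limma 3 of the 17 were higher at an unadjusted p under 0.05, beside 5.37% of all genes.

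Glutathione and thioredoxin genes were lower in mean with aged particles for 9 of 9, with a median of -0.27, and none was called. The differences were -0.52 for trx-1, thioredoxin, -0.30 for wdr-23, the repressor of the stress regulator SKN-1, -0.29 for skn-1 itself, -0.28 for gss-1, glutathione synthetase, and -0.26 for gsr-1, glutathione reductase. The rate-limiting enzyme of glutathione synthesis, gcs-1, differed by -0.13. At an unadjusted p under 0.05 in limma, 1 of the 9 was lower, beside 5.24% of all genes. The aged arrays lay wholly below the pristine arrays in 3, or 33.3%, beside 8.94% of all genes.

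Detoxification families did not share a direction. Glutathione S-transferases were higher in mean for 26 of 45 and lower for 17, with a median of 0.03. UDP-glucuronosyltransferases, which attach sugar acids to foreign compounds, were higher for 20 of 64 and lower for 42, with a median of -0.12. At an unadjusted p under 0.05 in limma, 3 of those were higher and 10 lower, beside 5.37% and 5.24% of all genes. Among them were ugt-20 at -0.67 (adjusted p = 0.2, limma), ugt-9 at -0.50 (adjusted p = 0.267, limma) and ugt-45 at 0.76 (adjusted p = 0.185, limma). Cytochrome P450 genes had a median of 0.01 over 73 and ABC transporters -0.10 over 53. None of these families held a called gene.

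Superoxide and peroxide enzymes had a median of 0.03 over 17. The mitochondrial superoxide dismutase gene sod-3 read 7.41, 7.48 and 7.47 with aged and 6.46, 6.58 and 6.5 with pristine particles. These 2 groups had little spread, while the silver nitrate arrays ran from 7.15 to 8.20, and the adjusted p was 0.236 with 12 arrays and 0.0263 with only the 6 in limma. The glutathione peroxidase gene gpx-3 differed by 0.61 (adjusted p = 0.157, limma). Cytosolic heat shock genes had a median of 0.15 over 18, or 0.01 without aged replicate 2, and endoplasmic reticulum chaperones and sensors -0.13 over 16, with none called.

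Most members of the germline lists were lower in mean with aged than with pristine particles, by small amounts and with none called. Genes of P granules and germline RNA were higher for 8 of 26 and lower for 18, with a median of -0.22 and values from -0.94 for gld-3 to 0.90 for pgl-3. Meiotic chromosome genes were higher for 5 of 26 and lower for 21, with a median of -0.14, among them spo-11, which makes the breaks that start recombination, at -0.73. Oocyte and eggshell genes were higher for 9 of 25 and lower for 16, with a median of -0.11, and the eggshell proteoglycan genes cpg-2 and cpg-1 differed by -0.49 and -0.34. Against control, cpg-2 stood at 0.29 with aged and 0.78 with pristine particles, and cpg-1 at 0.09 and 0.43. For spo-11 these values were -0.41 and 0.32. At an unadjusted p under 0.05 in limma, 1, 3 and 3 members of these lists were lower, beside 5.24% of all genes. The meiotic list also held 1 higher member at that threshold, htp-2 at 0.71 (adjusted p = 0.387, limma), and the others 0, beside 5.37% of all genes. Averaged over the P granule list, aged replicate 2, at 7.41, stood lowest of the 6 arrays, and control replicates 2 and 3 were lower still. DNA replication genes had a median of -0.07 and major sperm proteins 0.08.

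Ribosomal protein genes differed by less than most, but in a common direction. Of 75 cytosolic ribosomal protein genes 3 were higher in mean and 72 lower, with a median of -0.09 beside the -0.02 of all genes. That median depended on the processing and ran from -0.10 to -0.03 over other settings. Values ran from -0.23, for rps-29, to 0.06, and none was called. At an unadjusted p under 0.05 in limma 1 was lower, beside 5.24% of all genes. Mitochondrial ribosomal protein genes were higher for 19 of 59 and lower for 40, with a median of -0.07, and mrps-23 at -0.32 had the smallest p (adjusted p = 0.122, limma).

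Neuropeptide genes were higher in mean for 47 of 73 and lower for 24, with a median of 0.05 and none called. The gene nlp-20 read 12.99, 12.76 and 12.62 with aged and 12.06, 12.17 and 12.05 with pristine particles (0.70, adjusted p = 0.0833, limma), and its control arrays, from 12.66 to 13.002, lay with the aged ones. The same order was seen for nlp-21, at 0.48 (adjusted p = 0.0836, limma). In the other direction flp-1, which encodes FMRFamide-like peptides, read 13.17, 13.48 and 13.40 against 13.69, 13.87 and 13.88 (-0.46, adjusted p = 0.122, limma). Guanylyl cyclase genes, many of them sensory receptors, were higher for 8 of 32 and lower for 24, with a median of -0.18, the largest being gcy-12 at -1.55. Nuclear hormone receptors had a median of -0.06 over 254 and none called. Among them nhr-116 differed by 0.37 and nhr-253 by -1.62, with adjusted p of 0.0901 and 0.165 in limma.

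Among genes of fat metabolism, the lipase gene lipl-2 read 11.40, 11.27 and 11.23 with aged and 10.62, 10.78 and 10.59 with pristine particles (0.64, adjusted p = 0.0747, limma). The fatty acid elongase gene elo-4 differed by 1.40 (adjusted p = 0.122, limma), with aged arrays from 8.12 to 8.40 and pristine arrays from 6.77 to 6.98. The 113 genes of the list had a median of -0.02 with 51 higher and 61 lower.

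Marker lists of tissues are given for comparison with the cuticle lists. Their medians were 0.11 over 7 epidermal markers, 0.01 over 10 intestinal, 0.06 over 6 pharyngeal muscle, -0.01 over 16 neuronal and -0.25 over 7 germline markers, and none of these genes was called. The epidermal list holds the furrow collagen dpy-7, at 1.84. Intestinal markers differed in both directions: the protease gene cpr-1 read 13.15, 12.79 and 12.23 with aged and 11.48, 12.17 and 11.11 with pristine particles (1.14, adjusted p = 0.226, limma), while elt-2, the intestinal transcription factor gene, differed by -0.25 (adjusted p = 0.249, limma). The neuronal marker rgef-1 differed by -0.71 (adjusted p = 0.157, limma). Neither the part of tissue proportions nor that of developmental progress in the cuticle differences was tested. The signal of 3′ over 5′ probe sets of control transcripts, a readout of RNA integrity, overlapped between the groups: for actin it was from 1.573 to 1.685 with aged and from 1.466 to 1.799 with pristine particles on the log2 scale.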

How the data were processed

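The deposited intensity values, 1 per probe set on a linear scale, had been scaled by the authors to a common level, since all 12 arrays had a 2% trimmed mean of 500.1 to 500.2. Which software summarised them is not stated, and array number limits the precision. Of 22625 probe sets, 77 array controls were left out. Arrays were scaled to a common median, values under 16 were set to 16, and log2 was taken. On each array 13.7% to 15.8% of values were below it. Differences were tested with limma 3.58.1 in R 4.3.3, checked on simulated data, with Benjamini-Hochberg adjustment over 22548 probe sets. Where the lower group had an array at the floor, a fold is a lower bound.

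Of the probe sets, 20766 matched 1 gene each (17118 genes), 887 several and 895 none in the platform annotation; 20701 names were updated through the RefSeq table of assembly WBcel235. The brightest probe set stood for a gene in the lists. Genes were named where called, where they had the smallest p of their list, or where they define it. Genes and lists were chosen with earlier results of these data known. Alternatives changed the arrays fitted, the scaling, the floor, the filter, the variance model and the replicate block.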

Additional observations from a re-analysis of the deposited data

How the results depend on the processing

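The number of probe sets called moved with most settings. It was 8 with only the 6 aged and pristine arrays, 43 (37 higher, 6 lower) after quantile normalisation, 42 with the deposited scaling, 11 with a floor of 1 and 24 with a floor of 64. It was 107 among probe sets above median brightness, 48 without the dimmest 25%, 29 without probe sets at the floor on 3 or more arrays and 95 with a trended, robust prior. Of the 25, 24 or more were also called after quantile normalisation, with the deposited scaling and with the trended prior, 12 with the floor of 64 and 8 with the floor of 1. With only the 6 arrays and without probe sets at the floor on all 6, an alternative chosen after seeing the data, 22 were called, 9 of them among the 25. Without 1 array the count ran from 5 to 23. The cause of these shifts was not tested. The share of lower calls, 3 of 25, was 8 of 12 without pristine replicate 1 and 0 of 6 without aged replicate 3.

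The labels do not say whether the replicate numbers pair the samples. Deviations of same-numbered aged and pristine arrays correlated at 0.059, 0.091 and 0.054. These values are small, but each aged and pristine array correlated best with its own number in the other of these groups. Control and silver nitrate arrays were not compared in this way, and whether the numbers mark a pairing was not tested. With the number as a replicate block, 14 probe sets were called, 9 of them among the 25.

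Over 117 named genes and 23 settings no difference changed sign. Many of these genes were named for a call or a small p on these same arrays, so a change of sign was unlikely from the outset. The median of the collagens lay between 0.35 and 0.60 and that of the hedgehog-related genes between 0.29 and 0.87 in all settings. Other medians moved by over 1.5 times. Without 1 array, that of the furrow collagens ran from 0.93 to 1.84, collagen processing from 0.04 to 0.22, lysozymes from 0.05 to 0.28, guanylyl cyclases from -0.24 to -0.11, germline markers from -0.35 to -0.17 and major sperm proteins from -0.06 to 0.31. Meiotic chromosome genes ran from -0.22 to -0.05 in the same fits. Over the other settings, surface glycosylation ran from 0.00 to 0.56, lysozymes from 0.03 to 0.40, the pharyngeal cuticle from 0.02 to 0.17 and P granule genes from -0.24 to -0.11. There UDP-glucuronosyltransferases ran from -0.17 to 0.00 and ABC transporters from -0.12 to 0.00. Oocyte and eggshell genes ran from -0.24 to -0.05 and cytosolic ribosomal proteins from -0.10 to -0.03. Probe sets near the floor give only bounds, and arrays of 3 per group leave wide errors.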

Other observations

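Some probe sets were called with only the 6 arrays but not with 12. For H23N18.5 the aged arrays read 8.41, 8.17 and 8.52, pristine replicate 1 read 4.24 and the other pristine arrays were at the floor, a difference of at least 19.5-fold (adjusted p = 0.0146 with the 6 arrays and 0.0553 with 12, limma). Silver nitrate arrays of this gene read 4.15 and 6.65 and the floor. For nol-53 the aged arrays read 8.72, 8.70 and 8.66 and the pristine arrays 9.50, 9.49 and 9.48, or 1.74-fold lower with aged particles (adjusted p = 0.0152 with the 6 arrays and 0.0553 with 12, limma). These genes were chosen after their values were seen.

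A number of genes higher with aged particles lie next to each other in the RefSeq annotation. Among list members with an unadjusted p under 0.05 in limma, neighbours included dpy-13 and col-34, at 0.65 and 0.75, and col-183 and col-184, at 1.75 and 0.38. They also included the hedgehog-related grd-3 and grd-10, at 0.80 and 0.69, and clec-230 and clec-231, at 0.87 and 0.51. The probe sets of dpy-13 and col-34 can also bind near-identical transcripts. Whether neighbours were more frequent than by chance was not tested.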
